A study of Ovis aries with 15 samples.

Results

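Fetal sheep liver expresses a set of genes that build fatty acids, lengthen and desaturate them, join them into triglyceride, and store, export or release that triglyceride. The 36 genes described here were chosen by name for these steps, and 36 of 36 are in the deposited table of 31411 genes and passed the filter on low counts. They were measured by RNA sequencing of bulk liver of Ovis aries fetuses at 3 gestational days (GD): 4 libraries came from GD100, 5 from GD124 and 6 from GD144. The labels used here give no breed, sex or treatment for any stage. The letters of the sample codes differ between the stages, so that whatever these letters stand for cannot be told apart from the stage.

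Fatty acid synthesis starts from cytosolic acetyl-CoA, which is carboxylated to malonyl-CoA and polymerised to palmitate. In ruminants acetate is the main carbon source, and adipose tissue rather than liver is the principal site of synthesis after birth. Fatty acids are esterified to glycerol phosphate, dephosphorylated to diacylglycerol and esterified again to triglyceride, which hepatocytes keep in droplets, hydrolyse for oxidation or load onto lipoproteins. Insulin and glucose drive synthesis through the transcription factors encoded by SREBF1 and MLXIPL, while fasting and cAMP favour release.

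Transcripts of fatty acid synthase (FASN), acetyl-CoA carboxylase 1 (ACACA), the acetate-activating enzyme ACSS1, the elongase ELOVL1 and hormone-sensitive lipase (LIPE) were lower at each later stage. Those of the phosphatidate phosphatase LPIN1, the acyltransferase AGPAT3 and adipose triglyceride lipase (PNPLA2) were higher at each later stage. Between GD100 and GD124 the calls of FASN (edgeR adjusted p = 0.0378) and LPIN1 (edgeR adjusted p = 0.0491) were each lost without most single libraries of these stages. The call of FASN between GD124 and GD144 was lost without GD124 replicate 1. The falls of ACSS1, ELOVL1 and LIPE went together with that of erythroid marker transcripts, whose part in them was not tested. With all libraries LPIN1 had the largest log2 fold change of the 36 genes in each of the 3 pairwise comparisons, and it was 105-fold higher at GD144 than at GD100.

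Library totals ran from 24215612 to 38247295 estimated counts, and a floor of 3 counts corresponded to 0.0797 to 0.128 CPM (counts scaled to a common library total with TMM factors), which covers counting error alone. Hepatocyte markers, of which 9 of 10 were in the table, summed to 58000 to 175000 CPM at GD100, 221000 to 259000 CPM at GD124 and 173000 to 217000 CPM at GD144. The sums of 10 erythroid markers were 3680 to 9060, 1450 to 2890 and 95.8 to 682 CPM in the same order of stages. The adipocyte markers LEP (0 counts in each library), ADIPOQ (at most 0.269 CPM) and FABP4 (0 at GD100 and GD124, 0.0368 to 0.321 CPM at GD144) were at or near 0. PLIN1, CIDEA and CIDEC were low but above the floor, with at most 2.74, 4.10 and 5.94 CPM, and CFD made up most of the adipocyte sum. GD100 replicates 2 to 4 stood apart in the table, with 10.6 to 10.8% fractional values, against 5.09 to 6.2% in the other libraries, so results were also computed with GD100 replicate 1 as the sole library of its stage. In bulk tissue, less RNA per cell cannot be told apart from fewer cells of a type. The labels do not say whether each replicate is a fetus of its own. The p-values therefore set a stage difference only against the spread between these libraries, which may be technical.

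For each of 16977 genes, 1 fit to all libraries gave an edgeR quasi-likelihood F-test, and a gene was called at an adjusted p (Benjamini-Hochberg over all genes tested) under 0.05. For GD124 against GD100, 6 of the 36 genes were called higher and 9 lower, where 16.6% and 17.4% of all tested genes were called in these directions and 34% in either. For GD144 against GD124, 10 were higher and 6 lower, against 12.1% and 15.4% of all genes. For GD144 against GD100, 14 were higher and 9 lower, against 27.1% and 27.9% of all genes and 55% in either direction. The median log2 change of the 36 genes was -0.03, 0.17 and 0.15 in these comparisons, and -0.01 to 0.03 over all tested genes. The libraries of the stages compared did not overlap in CPM for 24.3%, 18.8% and 40% of all tested genes in the same order. A test for any difference between stages called 26 of the 36 genes and 56.3% of all genes. The higher counts were 2 for GD124 and 7 for GD144, both against GD100, when GD100 replicate 1 stood alone for its stage.

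**Figure D1:**
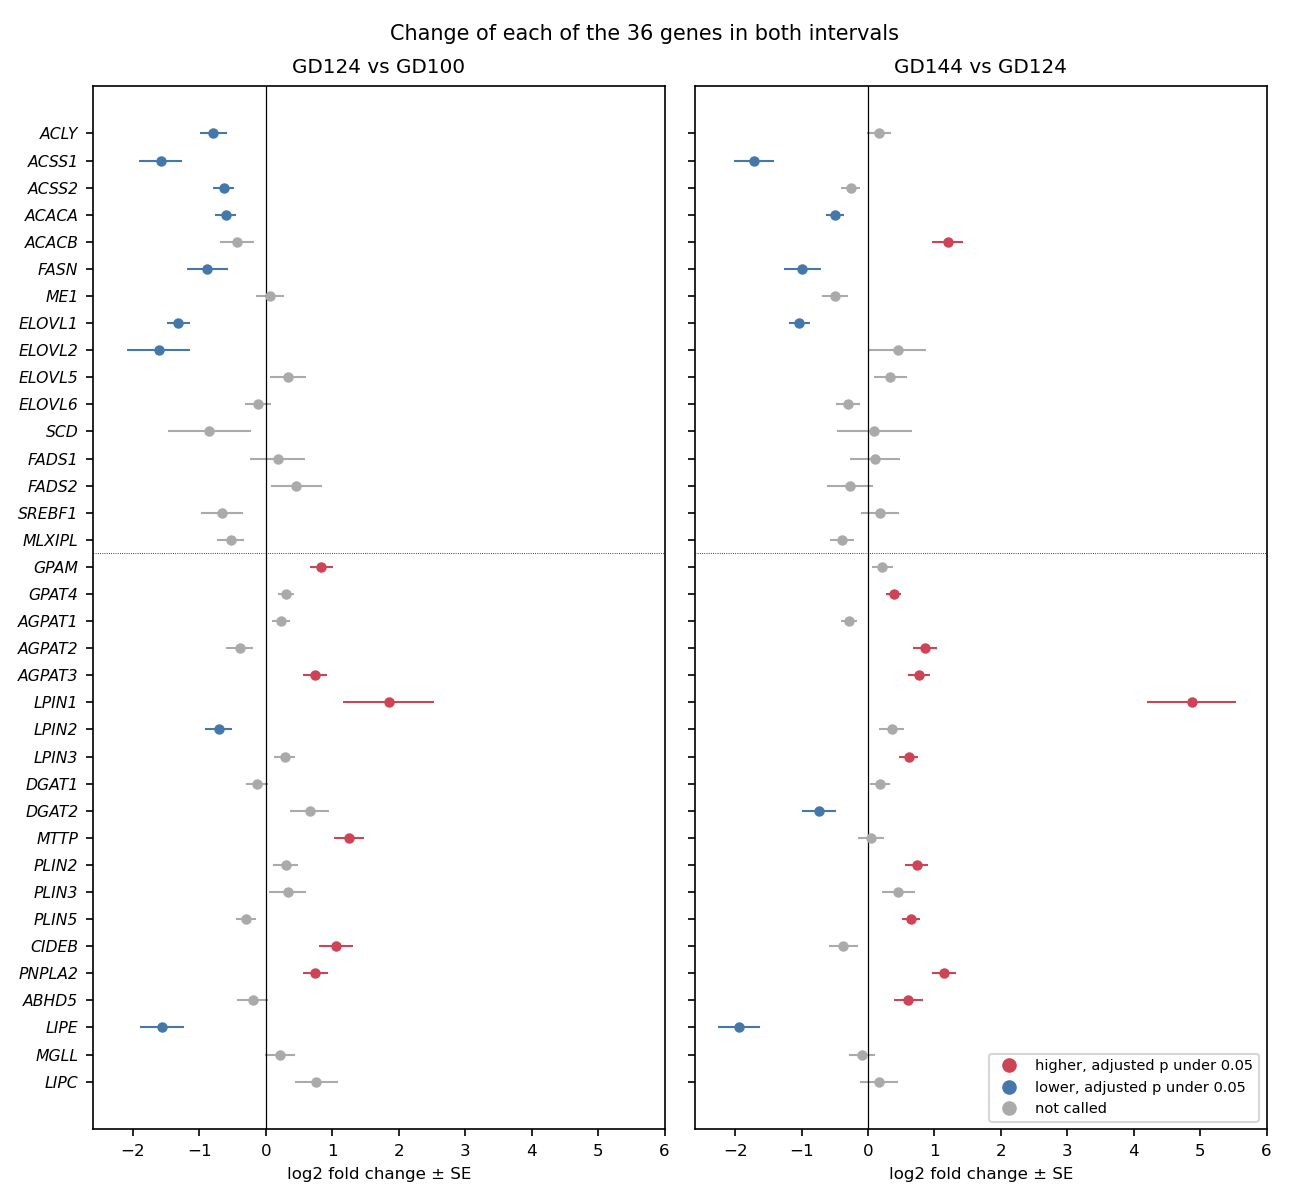
Log2 fold change with its SE (horizontal axis) of each of the 36 genes (vertical axis) for GD124 against GD100 on the left and GD144 against GD124 on the right. Colour gives the edgeR call, and the dotted line parts synthesis and regulator genes above from assembly, storage and release genes below. LPIN1 lies at 4.87 in the later interval, and LIPE (-1.57 and -1.95) and ACSS1 (-1.58 and -1.71) lie left of 0 in both.

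Of the 7 genes grouped under de novo synthesis, the mitochondrial ACSS1 included, 5 fell and 0 rose at GD124 against GD100. Among all tested genes 17.4% fell and 16.6% rose. At GD144 against GD124 3 fell and 1 rose, beside 15.4% and 12.1% of all tested genes. Over the whole span 5 fell and 1 rose, beside 27.9% and 27.1%. FASN, the multienzyme that makes palmitate, had 142, 109.8, 110.5 and 112 CPM in GD100 replicates 1 to 4. It had 95.1, 59.5, 54.6, 51.1 and 60.5 CPM in GD124 replicates 1 to 5, and 14.8, 29.6 and 64.1 CPM as the lowest, median and highest of the 6 GD144 libraries. Stages GD100 and GD124 did not overlap, while GD144 replicate 1, the highest of its stage, lay within the GD124 range. The log2 fold change was -0.88 ± 0.31 (SE, edgeR adjusted p = 0.0378) for GD124 against GD100, -0.99 ± 0.28 (adjusted p = 0.0157) for GD144 against GD124 and -1.87 ± 0.30 (adjusted p = 6.77e-05) for GD144 against GD100. The call for GD124 against GD100 was lost without any of GD100 replicates 1 to 3 or GD124 replicates 2 to 5, at adjusted p of 0.0613 to 0.0914. It was also lost with GD100 replicate 1 as the sole library of its stage (adjusted p = 0.166), with upper quartile factors (0.0505) and with no filter on low counts (0.0525). The call for GD144 against GD124 was lost without GD124 replicate 1 (log2 -0.81, adjusted p = 0.0503), whereas the call over the whole span held without any single library.

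ACACA, the carboxylase whose malonyl-CoA feeds synthesis, had 56.7, 34.3, 34.2 and 33.2 CPM at GD100, 25.5, 25.4, 26.0, 26.1 and 27.0 CPM at GD124, and 15.8, 18.1 and 21.2 CPM (lowest, median, highest) at GD144. The 3 stages did not overlap. The log2 changes were -0.61 ± 0.15 (edgeR adjusted p = 0.00677) for GD124 against GD100 and -0.50 ± 0.14 (adjusted p = 0.0134) for GD144 against GD124. GD100 replicate 1 was well above the other GD100 libraries, and without it the change from GD100 was -0.38 (adjusted p = 0.0196). ACACB, the isoform at the mitochondrial surface whose malonyl-CoA inhibits fatty acid import, had 9.32, 7.16, 7.25 and 4.89 CPM at GD100. It had 4.71, 4.00, 4.53, 4.80 and 8.58 CPM at GD124, and 7.81, 12.1 and 16.9 CPM (lowest, median, highest) at GD144. It was higher at GD144 than at GD124 by log2 1.20 ± 0.24 (edgeR adjusted p = 0.00129), with GD144 replicate 3 inside the GD124 range. At GD124 against GD100 it was not called, except without GD124 replicate 5 (log2 -0.67, edgeR adjusted p = 0.0369). Against GD100 the rise at GD144 was 0.77 ± 0.25 (adjusted p = 0.015), a call lost without GD100 replicate 4 (adjusted p = 0.0501) and with GD100 replicate 1 as the sole library of its stage (log2 0.40, adjusted p = 0.467).

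The ratio of ACACB to ACACA counts within a library, which does not depend on scaling, averaged 0.181, 0.198 and 0.651 (geometric means) at GD100, GD124 and GD144. As the lengths of both transcripts are not known here, only the change in this ratio is meaningful. It was 3.3-fold higher at GD144 than at GD124 and 3.59-fold higher than at GD100, with no overlap of libraries. By an exact two-sided permutation test, adjusted over 33 tests on 11 pairs of genes chosen with earlier results known, p was 0.0196 for each. Without GD144 replicate 5 the second of these had an adjusted exact permutation p of 0.0524, where fewer libraries also raise the smallest p the test can give.

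Acetate is activated to acetyl-CoA by 2 synthetases, in different compartments. ACSS1, the mitochondrial form, had 33.01, 86.3, 79.6 and 40.5 CPM at GD100, 20.6, 22.5, 14.2, 13.7 and 28.8 CPM at GD124, and 3.42, 5.73 and 9.96 CPM (lowest, median, highest) at GD144. It fell at each step without overlap of stages, by log2 -1.58 ± 0.32 (edgeR adjusted p = 0.00203) for GD124 against GD100 and -1.71 ± 0.30 (adjusted p = 0.000616) for GD144 against GD124. GD100 replicates 2 and 3 were far above replicates 1 and 4. With GD100 replicate 1 as the sole library of its stage the change at GD124 was -0.73 (adjusted p = 0.264) and that at GD144 was -2.43 (adjusted p = 0.000366). ACSS2, the cytosolic form, averaged 37.5 ± 5.82, 24.1 ± 5.46 and 20.1 ± 2.24 CPM at GD100, GD124 and GD144 (SD, n = 4, 5 and 6). It fell by log2 -0.64 ± 0.16 (edgeR adjusted p = 0.00723) at GD124 against GD100 and had a change of -0.26 ± 0.15 (adjusted p = 0.208) at GD144 against GD124. Neither call against GD100 held for ACSS2 with GD100 replicate 1 alone (adjusted p = 0.405 at GD124 and 0.0843 at GD144). The ratio of ACSS2 to ACSS1 rose to 3.45 at GD144 against 1.23 at GD124, a 2.81-fold difference without overlap (adjusted exact permutation p = 0.0196).

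ACLY, which splits citrate to cytosolic acetyl-CoA, had 37.2, 26.4, 26.2 and 20.8 CPM at GD100, 16.9, 17.6, 20.4, 11.6 and 13.4 CPM at GD124, and 14.3, 16.9 and 24.6 CPM (lowest, median, highest) at GD144. It fell by log2 -0.80 ± 0.20 (edgeR adjusted p = 0.00709) at GD124 and the values of GD124 and GD144 overlapped (log2 0.17 ± 0.18, adjusted p = 0.542). Its change over the whole span, -0.63 ± 0.19 (adjusted p = 0.0111), was not called without GD100 replicate 1 (-0.45, adjusted p = 0.0622). ME1, a cytosolic source of NADPH, averaged 6.21 ± 1.66, 6.49 ± 1.54 and 4.61 ± 0.502 CPM and passed no pairwise test (log2 -0.49 ± 0.19, edgeR adjusted p = 0.0694, for GD144 against GD124). Without GD100 replicate 1 or GD124 replicate 4 it was called lower at GD144 than at GD124 (adjusted p = 0.0405 and 0.0423), and without GD100 replicate 1 also lower than at GD100 (adjusted p = 0.0205).

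**Figure D2:**
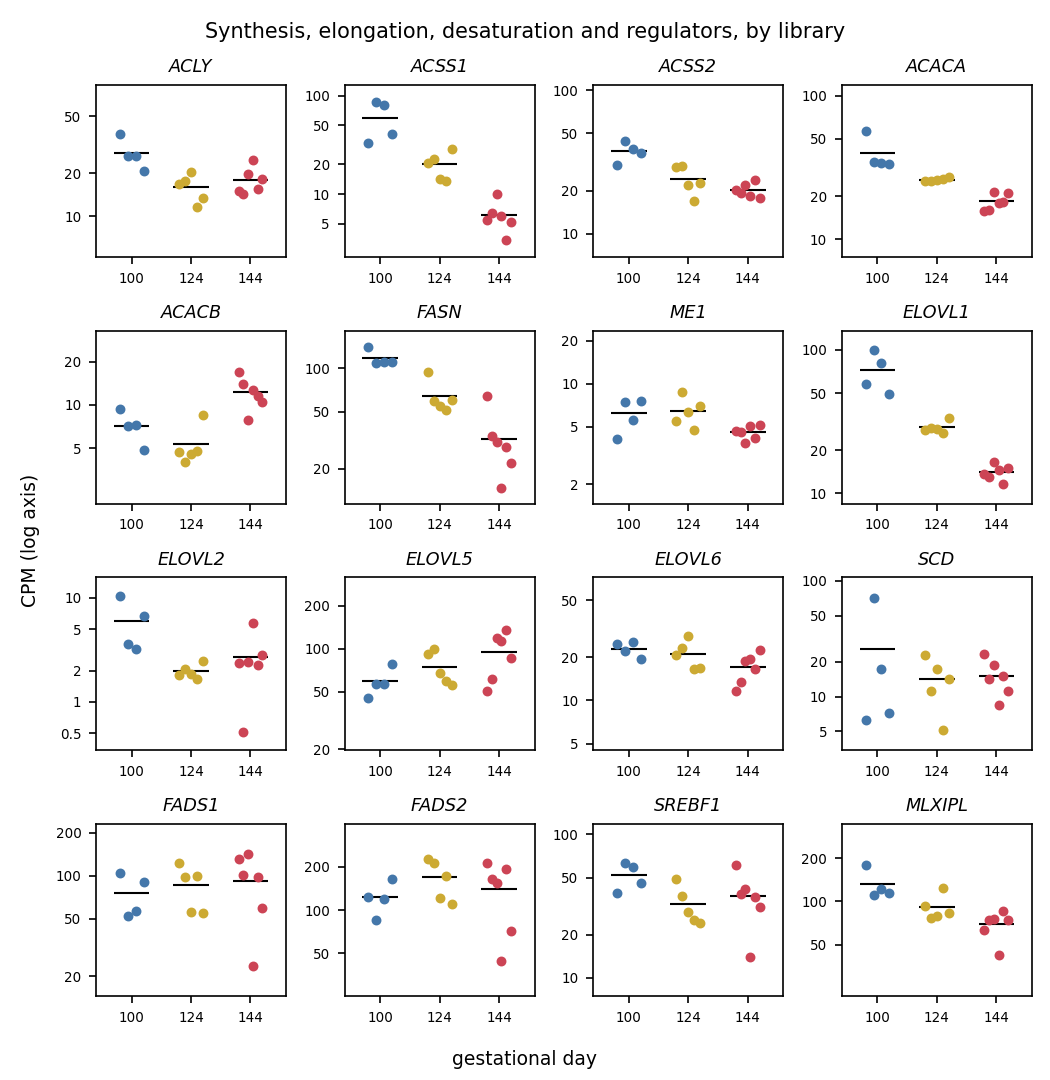
CPM on a log axis against gestational day for the 16 genes of synthesis, elongation, desaturation and their regulators, 1 point per library and a line at the mean of each stage. The points of ACACA, ACSS1 and ELOVL1 do not overlap between stages, while those of FADS1 and FADS2 spread widely within GD144 and SCD within GD100.

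Of the 4 elongases, 2 fell and 0 rose at GD124 against GD100 (17.4% and 16.6% of all tested genes), and 1 fell and 0 rose at GD144 against GD124 (15.4% and 12.1% of all tested genes). ELOVL1, which extends saturated and monounsaturated chains to very long ones, had 57.9, 99.4, 80.8 and 49.4 CPM at GD100, 27.7, 28.5, 28.3, 26.2 and 33.3 CPM at GD124, and 11.6, 14.1 and 16.5 CPM (lowest, median, highest) at GD144. No library of a later stage reached the range of an earlier one. The log2 changes were -1.32 ± 0.17 (edgeR adjusted p = 0.000146) for GD124 against GD100 and -1.04 ± 0.16 (adjusted p = 0.000178) for GD144 against GD124, and both were called under each alternative tried, including GD100 replicate 1 alone. ELOVL2, which lengthens long polyunsaturated chains, was scarce, with 10.6, 3.60, 3.20 and 6.73 CPM at GD100 and 1.66 to 2.48 CPM at GD124. Its fall of log2 -1.61 ± 0.47 (edgeR adjusted p = 0.0149) at GD124 was not called without GD100 replicate 1 (-1.19, adjusted p = 0.0643). At GD144 ELOVL2 ran from 0.515 to 5.71 CPM, and its call against GD100 (adjusted p = 0.0337) was lost without any of GD100 replicates 1 and 4 or GD144 replicates 1, 3 and 5, at adjusted p of 0.0537 to 0.182.

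ELOVL5, the elongase of shorter polyunsaturated chains, averaged 59.4 ± 13.9, 74.9 ± 19.7 and 94.5 ± 33.9 CPM at GD100, GD124 and GD144. It was called higher at GD144 than at GD100 (log2 0.67 ± 0.27, edgeR adjusted p = 0.0426), with overlapping libraries and an adjusted p of 0.1 for any difference between stages. That call was lost without any of GD100 replicates 1 to 3, GD124 replicate 3 or GD144 replicates 3 to 6, at adjusted p of 0.051 to 0.116. ELOVL6, which turns palmitate into stearate, averaged 22.9 ± 2.80, 21.1 ± 4.74 and 17.1 ± 4.06 CPM, with a log2 change of -0.42 ± 0.19 (adjusted p = 0.068) at GD144 against GD100, called without GD144 replicate 6 (adjusted p = 0.0291). The ratio of ELOVL6 to ELOVL5 counts was 0.188 at GD144 against 0.390 at GD100, a change of log2 -1.06 (adjusted exact permutation p = 0.0314). The libraries overlapped, and the adjusted exact permutation p was 0.0524 to 0.0786 without any of GD100 replicates 1 to 3 or GD144 replicates 1 to 5. At GD144 against GD124 the same ratio was called without GD144 replicate 6 (log2 -0.69, adjusted exact permutation p = 0.0476).

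None of the 3 desaturase genes was called in any pairwise edgeR comparison, and at an unadjusted p under 0.05 the count was also 0, as it was with adjusted p from DESeq2. SCD, which puts the double bond into stearate, had 6.25, 71.4, 17.2 and 7.24 CPM at GD100, 22.8, 11.1, 17.3, 5.19 and 14.3 CPM at GD124, and 8.504, 14.6 and 23.1 CPM (lowest, median, highest) at GD144. GD100 replicate 2 was far above every other library, and the log2 difference between GD124 and GD100 was -0.85 ± 0.62 (edgeR adjusted p = 0.311). FADS2, which with FADS1 desaturates essential fatty acids, averaged 123 ± 32.1, 169 ± 51.9 and 140.1 ± 67.7 CPM, and FADS1 averaged 76.3 ± 26.0, 86.2 ± 30.0 and 92.4 ± 44.4 CPM. At GD144 against GD124 the log2 difference was -0.27 ± 0.34 for FADS2 (edgeR adjusted p = 0.606) and 0.10 ± 0.38 for FADS1 (adjusted p = 0.878).

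Neither regulator was called between neighbouring stages. SREBF1, whose protein turns on the genes of fatty acid synthesis in response to insulin, had 38.9, 63.1, 59.6 and 45.7 CPM at GD100, 49.0, 37.0, 28.8, 25.2 and 24.3 CPM at GD124, and 13.98, 37.7 and 60.9 CPM (lowest, median, highest) at GD144. The stages overlapped, and the log2 difference was -0.66 ± 0.31 (edgeR adjusted p = 0.117) for GD124 against GD100, called without GD144 replicate 4 (adjusted p = 0.0342). MLXIPL, which encodes the glucose-responsive factor ChREBP, had 178, 109.9, 123 and 115 CPM at GD100, 92.2, 76.3, 78.7, 125 and 83.1 CPM at GD124, and 42.5, 74.3 and 85.5 CPM (lowest, median, highest) at GD144. It was lower at GD144 than at GD100 by log2 -0.92 ± 0.20 (edgeR adjusted p = 0.000734) with no overlap. At GD124 against GD100 the change of -0.53 ± 0.20 had an adjusted p of 0.0542, and it was called without GD100 replicate 2 or 4, GD124 replicate 4 or GD144 replicate 4 (adjusted p = 0.0217 to 0.0449) and with GD100 replicate 1 alone (-0.97, adjusted p = 0.0392).

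Among the 10 genes of triglyceride assembly, 3 rose and 1 fell at GD124 against GD100, beside 16.6% and 17.4% of all tested genes. At GD144 against GD124 5 rose and 1 fell, beside 12.1% and 15.4%, and over the whole span 5 rose and 0 fell, beside 27.1% and 27.9%. The step from phosphatidate to diacylglycerol is carried out by the lipins. LPIN1, which in mouse liver is induced by fasting and glucocorticoid, had 3.19, 1.68, 1.02 and 2.70 CPM at GD100 and 2.84, 11.1, 7.45, 6.49 and 10.9 CPM at GD124. In GD144 replicates 1 to 6 it had 78.3, 172, 100.2, 548, 64.1 and 399 CPM. Each GD144 library was far above each earlier library. The difference was log2 4.87 ± 0.67 (29.3-fold, edgeR adjusted p = 0.000151) for GD144 against GD124 and 6.72 ± 0.82 (105-fold, adjusted p = 1.06e-05) for GD144 against GD100, and both calls held under each alternative.

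The rise of LPIN1 between GD100 and GD124, log2 1.85 ± 0.68 (edgeR adjusted p = 0.0491), was less certain, as GD124 replicate 1 lay inside the GD100 range. It was lost without any of GD100 replicates 1 to 4, GD124 replicates 2 to 5 or GD144 replicate 2, where the adjusted p was 0.0585 to 0.132, and with GD100 replicate 1 alone (log2 1.28, adjusted p = 0.522). The later change of LPIN1 minus the earlier one was log2 3.03 ± 1.11, and this difference did not pass (edgeR adjusted p = 0.122, and 0.0404 with DESeq2).

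LPIN2, the main lipin of mouse liver, had 75.5, 161, 132 and 82.6 CPM at GD100, 69.7, 62.0, 71.9, 71.4 and 68.8 CPM at GD124, and 67.0, 90.1 and 108 CPM (lowest, median, highest) at GD144. It fell at GD124 against GD100 (log2 -0.71 ± 0.20, edgeR adjusted p = 0.0137), with each GD100 library above each GD124 library. Without GD100 replicate 2 the change was -0.52 (adjusted p = 0.0549), without replicate 3 it was -0.64 (adjusted p = 0.0445), and with replicate 1 alone the change was -0.14 (adjusted p = 0.707). Over the whole span LPIN2 was called lower without GD100 replicate 1 (-0.50, adjusted p = 0.035). LPIN3 averaged 10.6 ± 1.81, 12.9 ± 2.52 and 19.6 ± 1.88 CPM, and was higher at GD144 than at GD124 by log2 0.61 ± 0.14 (edgeR adjusted p = 0.00443) with no overlap. Its call over the whole span was lost with GD100 replicate 1 as the sole library of its stage (0.61, adjusted p = 0.0684). The count ratio of LPIN1 to LPIN2 had geometric means of 0.0185, 0.102 and 1.88 at GD100, GD124 and GD144. It was 18.4-fold higher at GD144 than at GD124, without overlap (adjusted exact permutation p = 0.0196).

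**Figure D3:**
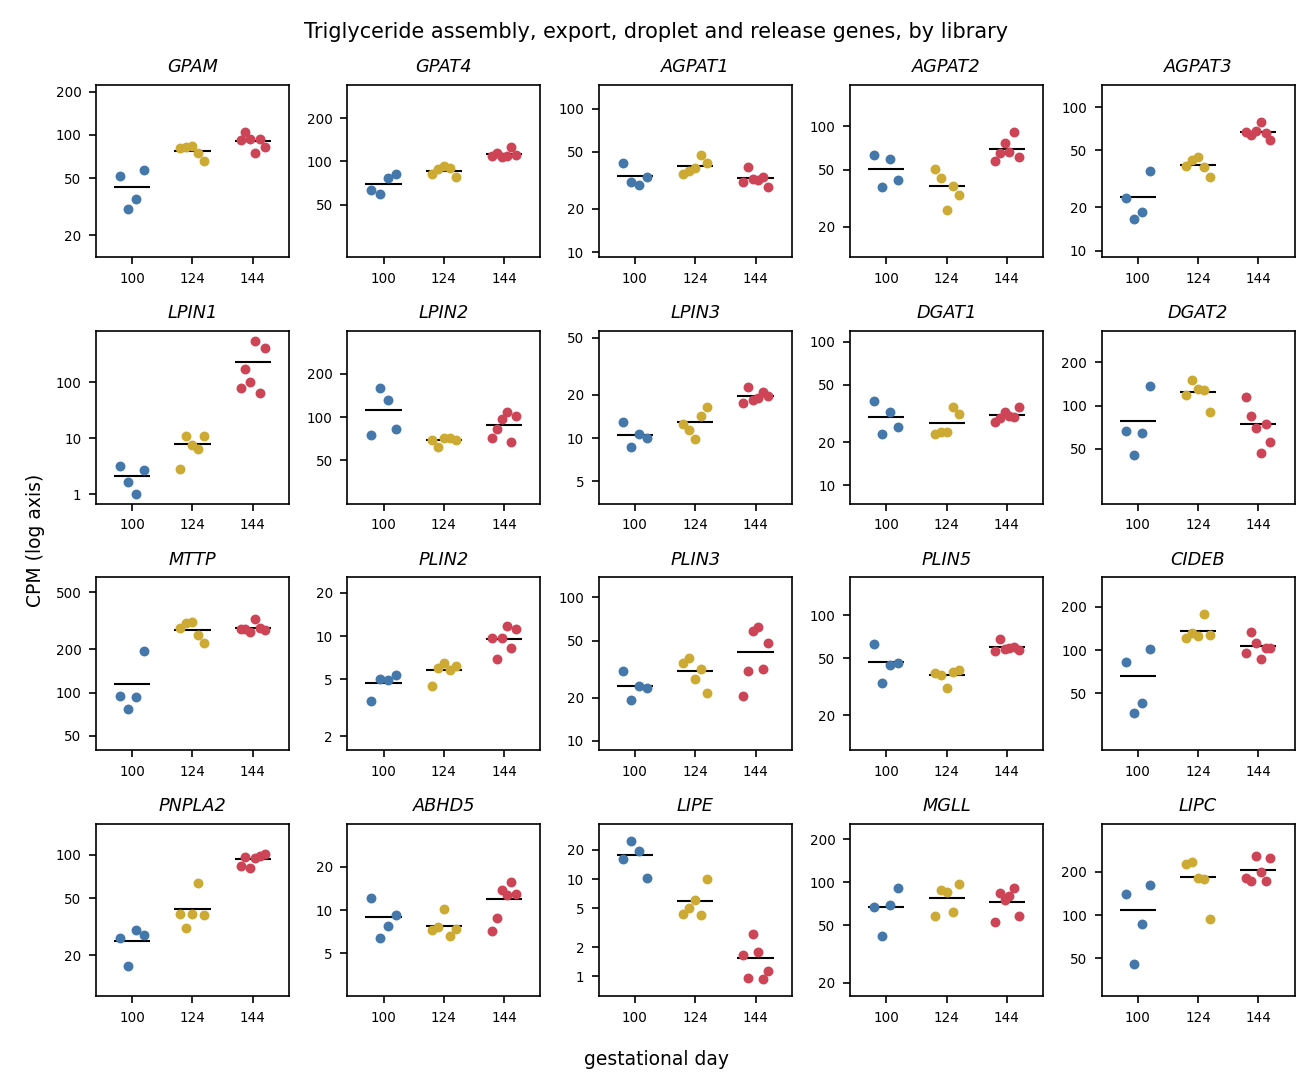
CPM on a log axis against gestational day for the 20 genes of triglyceride assembly, export, droplets and release, 1 point per library and a line at the mean of each stage. All GD144 points of LPIN1, AGPAT3, PNPLA2 and PLIN2 lie above the GD124 points, and those of LIPE lie below them.

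Glycerol phosphate acyltransferases start the assembly. GPAM, the mitochondrial form, had 51.3, 30.2, 35.7 and 56.8 CPM at GD100, 80.7, 82.5, 84.1, 74.7 and 65.5 CPM at GD124, and 74.9, 92.9 and 104 CPM (lowest, median, highest) at GD144. It rose between GD100 and GD124 without overlap, by log2 0.83 ± 0.17 (edgeR adjusted p = 0.00187), and with GD100 replicate 1 alone by 0.59 (adjusted p = 0.0641). GPAT4, the form of the endoplasmic reticulum, averaged 69.9 ± 10.7, 86.1 ± 6.21 and 112 ± 6.77 CPM and rose between GD124 and GD144 (log2 0.39 ± 0.11, edgeR adjusted p = 0.0135) without overlap. At GD124 against GD100 GPAT4 had a change of 0.30 ± 0.12 (adjusted p = 0.0609), called without GD100 replicate 4 or GD124 replicate 5 (adjusted p = 0.0337 and 0.0485). The ratio of GPAM to GPAT4 was 1.48-fold higher at GD124 than at GD100 (adjusted exact permutation p = 0.0291). Its unadjusted exact permutation p, 0.00794, was the smallest this test can give for these 2 stages. Fewer libraries raise that limit. The adjusted p above 0.05 without any single library of either stage (0.0536 to 0.0786, exact permutation test) therefore cannot show dependence on a library. With GD100 replicate 1 alone the log2 ratio differed by 0.14, against 0.56 with all libraries.

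The acylglycerolphosphate acyltransferases make phosphatidate. AGPAT3 had 23.4, 16.5, 18.6 and 35.99 CPM at GD100, 38.6, 42.7, 44.7, 38.1 and 32.7 CPM at GD124, and 58.9, 66.8 and 78.2 CPM (lowest, median, highest) at GD144. GD144 stood clear of both earlier stages, GD100 replicate 4 lay within the GD124 range, and AGPAT3 rose by log2 0.74 ± 0.19 (edgeR adjusted p = 0.00685) at GD124 and by 0.77 ± 0.17 (adjusted p = 0.00276) at GD144 against GD124. AGPAT2, whose loss causes lipodystrophy in humans, averaged 50.5 ± 12.4, 38.4 ± 9.44 and 69.6 ± 12.6 CPM. It had a change of log2 -0.40 ± 0.20 (edgeR adjusted p = 0.14) in the earlier interval and rose by 0.86 ± 0.19 (adjusted p = 0.00262) in the later one, without overlap. With scaling by total counts the earlier change was called (-0.57, adjusted p = 0.032). Over the whole span AGPAT2 was not called with all libraries (0.46 ± 0.20, adjusted p = 0.0564), but it was called without any of GD100 replicates 1 and 3, GD124 replicates 1 and 3 or GD144 replicate 1, with an adjusted p of 0.0268 to 0.049. AGPAT1 averaged 33.9 ± 5.63, 39.8 ± 5.00 and 32.7 ± 3.65 CPM and was not called in any pairwise comparison with all libraries. It was called higher at GD124 than at GD100 without GD100 replicate 1 (adjusted p = 0.0481), and lower at GD144 than at GD124 without GD144 replicate 2 (adjusted p = 0.0479). The ratio of AGPAT2 to AGPAT1 was 2.11 at GD144 against 0.946 at GD124 (2.23-fold, no overlap, adjusted exact permutation p = 0.0196). Against GD100 it was called without GD100 replicate 3 (log2 0.68, adjusted exact permutation p = 0.0437).

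The final acyl transfer is made by 2 unrelated enzymes. DGAT2 had 67.0, 45.7, 65.0 and 137 CPM at GD100, 119, 151, 131, 128 and 90.4 CPM at GD124, and 46.9, 72.2 and 114 CPM (lowest, median, highest) at GD144. It was called lower at GD144 than at GD124 (log2 -0.74 ± 0.26, edgeR adjusted p = 0.0445), with GD144 replicate 1 inside the GD124 range. That call was lost without any of GD100 replicate 3, GD124 replicates 1 to 4 or GD144 replicates 2 to 6, at adjusted p of 0.0544 to 0.111. At GD124 against GD100 the change was 0.66 ± 0.29 (adjusted p = 0.0931), and without GD100 replicate 4, the highest of its stage, it was 1.04 (adjusted p = 0.00565). DGAT1 averaged 29.8 ± 7.17, 27.3 ± 5.69 and 30.9 ± 2.62 CPM, with a log2 difference of 0.05 ± 0.16 at GD144 against GD100 (adjusted p = 0.819). The ratio of DGAT2 to DGAT1 was 2.32 at GD144 against 4.56 at GD124 (log2 -0.98, adjusted exact permutation p = 0.0519, and 0.0262 without GD144 replicate 1).

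**Figure D4:**
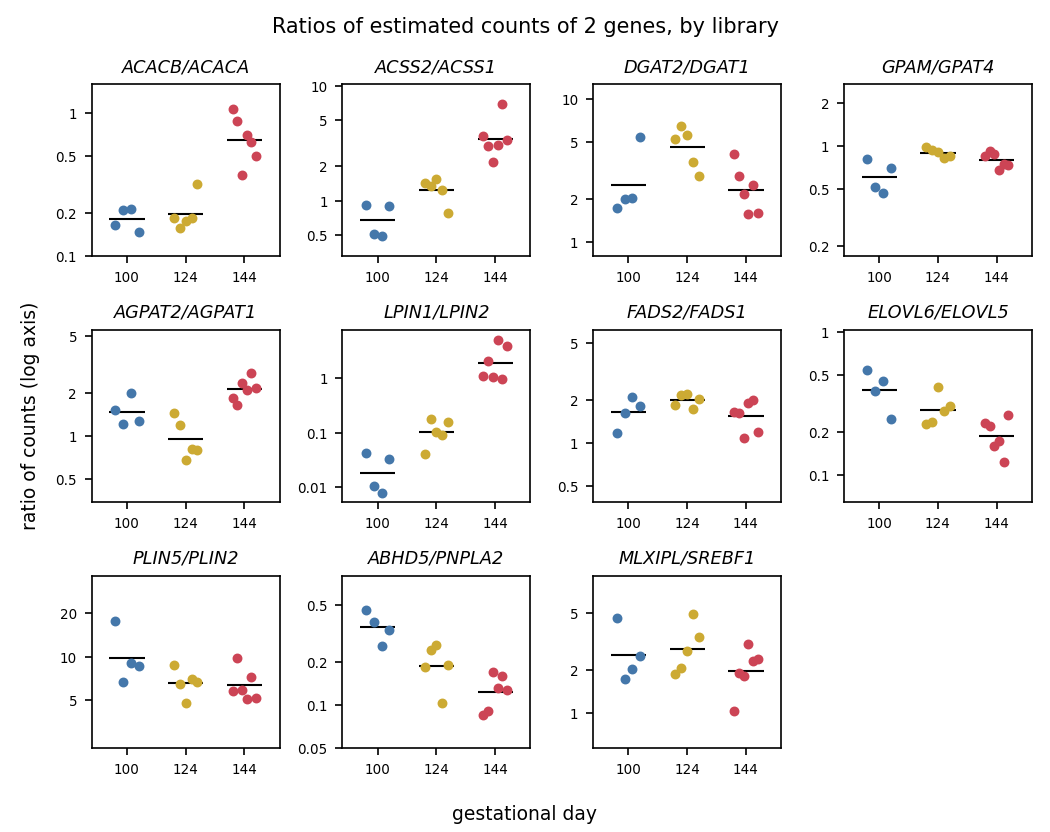
Ratio of the estimated counts of 2 genes within a library, on a log axis, against gestational day for the 11 pairs compared, 1 point per library and a line at the geometric mean of each stage. The GD144 points of LPIN1/LPIN2, ACACB/ACACA and ACSS2/ACSS1 lie above the points of both earlier stages.

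MTTP, which loads triglyceride onto apolipoprotein B for export, had 94.9, 77.4, 92.6 and 194 CPM at GD100, 280.2, 307, 308, 250.0 and 220.4 CPM at GD124, and 264, 276 and 327 CPM (lowest, median, highest) at GD144. It rose between GD100 and GD124 without overlap (log2 1.25 ± 0.22, edgeR adjusted p = 0.000779) and had a change of 0.05 ± 0.20 (adjusted p = 0.882) at GD144 against GD124. The later change minus the earlier one was -1.20 ± 0.35 (adjusted p = 0.0536), and without GD100 replicate 4 it was -1.52 (adjusted p = 0.00105).

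The 4 droplet genes had 1 rise at GD124 against GD100 and 2 at GD144 against GD124, where 16.6% and 12.1% of all tested genes rose, and 0 fell in either interval. Over the whole span 4 rose, beside 27.1% of all tested genes, a count that was 1 without GD100 replicate 2, 2 without GD100 replicate 3 or GD144 replicate 2, and 1 with GD100 replicate 1 as the sole library of its stage. PLIN2, the general droplet coat of hepatocytes, had 3.54, 5.00, 4.99 and 5.32 CPM at GD100, 4.49, 5.98, 6.48, 5.77 and 6.19 CPM at GD124, and 6.91, 9.76 and 11.7 CPM (lowest, median, highest) at GD144. The GD144 libraries lay above the others, with a rise of log2 0.73 ± 0.17 (edgeR adjusted p = 0.00421) against GD124. PLIN5, which couples droplets to mitochondria, had 62.6, 33.5, 45.2 and 46.2 CPM at GD100, 39.3, 38.5, 30.8, 40.3 and 41.3 CPM at GD124, and 56.5, 58.4 and 68.2 CPM (lowest, median, highest) at GD144. It rose by log2 0.65 ± 0.14 (adjusted p = 0.00206) at GD144 against GD124 without overlap. Against GD100 its change of 0.35 ± 0.15 (adjusted p = 0.0495) was lost without any of GD100 replicates 2 to 4, GD124 replicates 1, 2, 4 and 5 or GD144 replicates 2 to 6, at adjusted p of 0.0548 to 0.154. With GD100 replicate 1 alone it was -0.06 (adjusted p = 0.824). At GD124 against GD100 PLIN5 was called lower without GD100 replicate 2 (-0.45, adjusted p = 0.0224), with GD100 replicate 1 alone (-0.72, adjusted p = 0.0121) and with scaling by total counts (-0.47, adjusted p = 0.0173).

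PLIN3 averaged 24.3 ± 4.86, 30.5 ± 6.34 and 41.9 ± 16.8 CPM and was called at GD144 against GD100 (log2 0.79 ± 0.27, edgeR adjusted p = 0.0221) with overlapping libraries. That call was lost without GD100 replicate 2 (adjusted p = 0.0643) and with GD100 replicate 1 alone (0.45, adjusted p = 0.502), and without GD144 replicate 1 PLIN3 was called at GD144 against GD124 as well (adjusted p = 0.0405). CIDEB, which in mouse liver helps to load very-low-density lipoprotein with lipid, had 82.1, 36.4, 43.0 and 102 CPM at GD100, 120.3, 132, 125, 178 and 128 CPM at GD124, and 86.4, 104 and 133 CPM (lowest, median, highest) at GD144. It rose at GD124 against GD100 without overlap (log2 1.05 ± 0.25, edgeR adjusted p = 0.00503), and with GD100 replicate 1 alone by 0.73 (adjusted p = 0.0659). At GD144 against GD100 it was called at 0.69 ± 0.24 (adjusted p = 0.0246), but not without GD100 replicate 2 or 3 or GD144 replicate 2, with an adjusted p of 0.0519 to 0.0812, and not with GD100 replicate 1 alone (0.38, adjusted p = 0.246).

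Of the 5 lipase and cofactor genes, 1 rose and 1 fell at GD124 against GD100 (16.6% and 17.4% of all tested genes), and 2 rose and 1 fell at GD144 against GD124 (12.1% and 15.4%). PNPLA2, which makes the initial cut in triglyceride, had 26.3, 16.7, 29.8 and 27.5 CPM at GD100, 39.0, 31.2, 38.5, 63.3 and 38.3 CPM at GD124, and 81.3, 96.5 and 102 CPM (lowest, median, highest) at GD144. The stages did not overlap. PNPLA2 rose by log2 0.75 ± 0.20 (edgeR adjusted p = 0.00842) at GD124 and by 1.15 ± 0.18 (adjusted p = 0.000215) at GD144 against GD124, and was 3.71-fold higher at GD144 than at GD100. The earlier rise was 0.67 (adjusted p = 0.133) with GD100 replicate 1 alone. ABHD5, whose protein activates that lipase, averaged 8.90 ± 2.49, 7.78 ± 1.40 and 11.9 ± 3.20 CPM and was called at GD144 against GD124 (log2 0.61 ± 0.21, adjusted p = 0.0418) with overlap. This call was lost without any of GD124 replicates 1, 2, 4 and 5 or GD144 replicates 3 to 6, at adjusted p of 0.0543 to 0.0973, and without GD100 replicate 1 or GD144 replicate 1 ABHD5 was also called against GD100 (adjusted p = 0.0383 and 0.0384). The ratio of ABHD5 to PNPLA2 fell to 0.124 at GD144, against 0.354 at GD100 (log2 -1.52, no overlap, adjusted exact permutation p = 0.0196). Against GD124 it was called without GD124 replicate 4 (-0.82, adjusted exact permutation p = 0.0314).

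LIPE, the hormone-sensitive lipase of diacylglycerol and cholesteryl esters, had 16.2, 24.8, 19.2 and 10.2 CPM at GD100, 4.33, 5.08, 6.08, 4.31 and 9.99 CPM at GD124, and 0.931, 1.41 and 2.71 CPM (lowest, median, highest) at GD144. The 3 stages did not overlap, and LIPE fell by log2 -1.57 ± 0.33 (edgeR adjusted p = 0.00239) at GD124 and by -1.95 ± 0.32 (adjusted p = 0.000302) at GD144 against GD124. The earlier change was -1.45 (adjusted p = 0.057) with GD100 replicate 1 alone. MGLL, which cleaves monoglyceride, averaged 67.8 ± 20.4, 78.3 ± 17.3 and 73.5 ± 15.1 CPM and was not called (log2 0.12 ± 0.21 at GD144 against GD100, adjusted p = 0.669). LIPC, the secreted hepatic lipase, had 140, 45.5, 86.5 and 162 CPM at GD100, 228, 235, 183, 179 and 93.9 CPM at GD124, and 173, 189 and 259 CPM (lowest, median, highest) at GD144. It was higher at GD144 than at GD100 by log2 0.92 ± 0.31 (adjusted p = 0.0183) without overlap. That call was lost without GD100 replicate 3 (0.85, adjusted p = 0.0534) and with GD100 replicate 1 alone (0.57, adjusted p = 0.268), whereas LIPC was called at GD124 against GD100 without GD100 replicate 4 or GD124 replicate 5 (adjusted p = 0.0279 and 0.0248).

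The change in the later interval differed from that in the earlier one for 4 of the 36 genes, against 5.9% of all tested genes. It was higher in the later interval for 3 and lower for 1, against 2.15% and 3.75% of all tested genes. The difference was log2 1.63 ± 0.44 for ACACB (edgeR adjusted p = 0.0372), 1.25 ± 0.34 for AGPAT2 (adjusted p = 0.0398), 0.95 ± 0.25 for PLIN5 (adjusted p = 0.0358) and -1.42 ± 0.40 for CIDEB (adjusted p = 0.0451). The first 3 of these genes had a lower mean at GD124 than at GD100 and a higher one at GD144, and CIDEB had its highest mean at GD124. Of the 36 genes 12 had an unadjusted p under 0.05 in this test, and DESeq2 called 7. The count depended on single libraries. It was 0 without GD100 replicate 3, GD124 replicate 2, 3 or 4, or GD144 replicate 5, with 11 or 12 genes at an unadjusted p under 0.05 in each of these edgeR fits. It was 1 without GD124 replicate 1 or 5, 2 without GD100 replicate 2 or GD144 replicate 6, 3 without GD144 replicate 1 or 4, and 8 without GD100 replicate 4. Without GD100 replicate 4 the called genes included ACLY (adjusted p = 0.0405), LPIN2 (0.0287), DGAT2 (0.0119) and MTTP (0.00105). LPIN2 was also called without GD100 replicate 1 (adjusted p = 0.0289), and ELOVL2 without GD144 replicate 2 (0.0486).

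The median SD of log2 CPM of the 36 genes within a stage was 0.37, 0.31 and 0.28 at GD100, GD124 and GD144, against 0.35, 0.27 and 0.27 over all tested genes. At GD144 the SD was 1.27 for LPIN1, 0.96 for FADS1 and 0.90 for FADS2, at percentiles 98.7, 96.9 and 96.3 of all tested genes. It was 0.08 for GPAT4 and 0.10 for PLIN5, at percentiles 2.5 and 4.59. GD144 replicates 4 and 6, with the highest LPIN1 values (548 and 399 CPM), had the lowest values of FASN (14.8 and 22.0 CPM), SREBF1 (13.98 and 31.3 CPM), FADS1 (23.4 and 59.9 CPM), FADS2 (44.5 and 71.3 CPM) and DGAT2 (46.9 and 55.7 CPM). Including these, they were the 2 lowest GD144 libraries for 8 of the 36 genes (22.2%, against 7.32% of all tested genes), and the 2 highest for 6 (16.7%, against 7.34%). Those 6 were ME1, ELOVL2, ELOVL6, LPIN1, LPIN2 and PLIN2, so genes of synthesis and elongation lay on both sides. These 2 libraries were singled out after their values were seen, so the shares are a description. Their erythroid sums, 131 and 101 CPM, lay within the range of the other GD144 libraries. The sum of endothelial markers was the highest of the stage in replicate 4 (702 CPM) and within that range in replicate 6 (628 CPM). The part of cell types in this pattern was not tested.

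**Figure D5:**
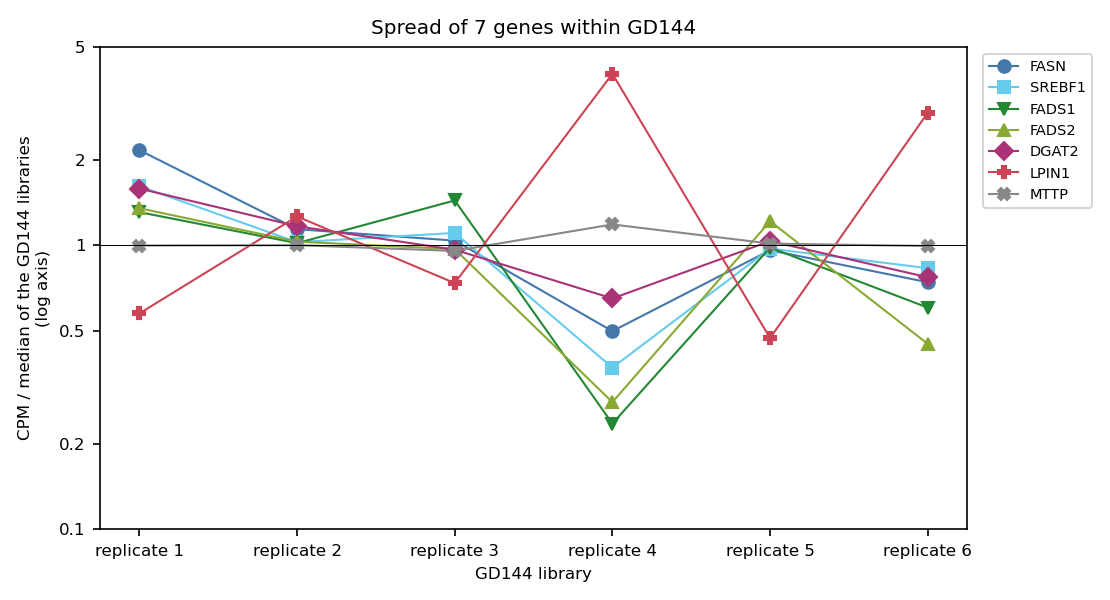
CPM of 7 genes in each GD144 library divided by the median of the 6 GD144 libraries, on a log axis, with lines joining the values of a gene. In replicates 4 and 6 LPIN1 is far above its median while FASN, SREBF1, FADS1, FADS2 and DGAT2 are below theirs, and MTTP stays near 1. ME1, ELOVL2, ELOVL6, LPIN2 and PLIN2, also highest in these libraries, are not shown.

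Marker sums of other cells differed from library to library as well. In each of the 3 stages ACSS1, ELOVL1 and LIPE were highest in the library with the highest erythroid sum, which was GD100 replicate 2 (9060 CPM), GD124 replicate 5 (2890 CPM) and GD144 replicate 3 (682 CPM). This held for 3 of the 36 genes (8.33%) and for 4.23% of all tested genes. The falls of these 3 genes over gestation went together with that of the erythroid sum, whose part in them was not tested. In GD100 replicates 2, 3, 1 and 4 the hepatocyte sum was 58000, 69400, 105000 and 175000 CPM, and FADS2, GPAM, AGPAT3, DGAT2, MTTP, CIDEB and LIPC increased over the libraries in the same order. Those are 7 of the 36 genes (19.4%), against 8.78% of all tested genes. The hepatocyte sum was higher at GD124 than at GD100, and its part in the rises of GPAM, AGPAT3, MTTP and CIDEB was not tested.

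The remaining pathway was described with 88 further genes, of which 82 were in the table and 77 were tested. Of these 14 rose and 7 fell at GD124 against GD100, where 16.6% and 17.4% of all tested genes did. At GD144 against GD124 14 rose and 14 fell, beside 12.1% and 15.4% of all tested genes, and at GD144 against GD100 28 rose and 21 fell, beside 27.1% and 27.9%. The 14 rises at GD124 and the 21 falls over the span are shares near those of all genes. The rises at GD124 numbered 8 without replicate 2 of GD100 and 7 without replicate 3 of that stage, and with GD100 replicate 1 alone there were 7 at GD124 and 14 at GD144, against GD100. The median log2 change over the whole span was 0.22, against 0.03 for all tested genes.

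Of 12 genes that supply carbon and NADPH, 8 (66.7%) rose and 3 (25%) fell over the span, beside 27.1% and 27.9% of all tested genes. PC, the mitochondrial pyruvate carboxylase, averaged 187 ± 29.6 CPM at GD144 and 69.6 ± 11.1 CPM at GD100 (log2 1.43 ± 0.18, edgeR adjusted p = 4.93e-06). MDH1, cytosolic malate dehydrogenase, rose by 1.42 ± 0.20 and PDHB, a subunit of pyruvate dehydrogenase, by 1.35 ± 0.15. PGD, an NADPH-producing enzyme of the pentose phosphate pathway, fell by 1.18 on the log2 scale. Of this list 5 rose and 3 fell with GD100 replicate 1 alone.

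Of 13 tested partners of elongation, desaturation and mitochondrial synthesis 2 (15.4%) rose and 5 (38.5%) fell over the span, beside 27.1% and 27.9% of all tested genes. FADS3, a relative of the desaturases above, averaged 1.59 ± 0.625 CPM at GD144 and 37.4 ± 11.8 CPM at GD100 (log2 -4.55 ± 0.32, edgeR adjusted p = 3.65e-08). FADS3 was lower in each library of a later stage than in any library of the stage before. It was highest in GD100 replicate 2 (49.3 CPM), GD124 replicate 5 (15.1 CPM) and GD144 replicate 3 (2.39 CPM), the libraries with the highest erythroid sums of their stages (9060, 2890 and 682 CPM), whose part in the fall was not tested. HACD4, a dehydratase of chain elongation, fell by 2.72 on the log2 scale and MCAT, a transferase of mitochondrial fatty acid synthesis, fell by 1.28, while OXSM, the synthase of that pathway, rose by 0.91. OXSM was not called with GD100 replicate 1 alone (adjusted p = 0.167), and the list then had 0 rises.

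Of 20 tested regulators 8 (40%) rose and 5 (25%) fell over the span, beside 27.1% and 27.9% of all tested genes. INSIG2, whose protein holds the SREBP precursors in the endoplasmic reticulum, averaged 20.8 ± 5.05, 55.2 ± 10.6 and 98.7 ± 13.1 CPM at GD100, GD124 and GD144 (log2 2.25 ± 0.19 over the span, edgeR adjusted p = 1.49e-07). SIK1, a kinase induced by cAMP that restrains gluconeogenic and lipogenic transcription in mouse liver, averaged 15.5 ± 5.17, 14.4 ± 2.98 and 57.3 ± 7.19 CPM, and rose in the later interval (log2 1.998 ± 0.19, adjusted p = 4.68e-06). CEBPA, a hepatocyte and adipocyte transcription factor, rose by 1.39 ± 0.29 over the span. MID1IP1, an activator of acetyl-CoA carboxylase, was lower by 1.05 on the log2 scale with overlapping libraries, but by 0.24 (adjusted p = 0.723) with GD100 replicate 1 alone. Without GD100 replicate 4, 3 regulators fell rather than 5, and with GD100 replicate 1 alone 4 rose and 0 fell.

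Of 13 further tested genes of acyl activation and assembly 3 (23.1%) rose and 4 (30.8%) fell over the span, beside 27.1% and 27.9% of all tested genes. ACSL1, the main acyl-CoA synthetase of liver, averaged 63.3 ± 24.3, 76.9 ± 10.7 and 590.3 ± 315 CPM at GD100, GD124 and GD144, with a rise in the later interval of log2 2.94 ± 0.36 (edgeR adjusted p = 4.21e-05). ACSL6, a synthetase also found in red cell precursors, fell by 3.98 on the log2 scale over the span, and at GD144 it had 17.6 CPM in replicate 3, the library with the highest erythroid sum, and 2.09 to 3.40 CPM in the others. At the earlier stages too ACSL6 was highest where the erythroid sum was, in GD100 replicate 2 (114 CPM) and GD124 replicate 5 (39.7 CPM), and the part of these cells in its fall was not tested. ACSL4, which prefers arachidonate, averaged 317 ± 132 CPM at GD100, 628 ± 62.6 CPM at GD124 and 116 ± 80.2 CPM at GD144. It fell by 2.44 on the log2 scale at GD144 against GD124 without overlap (edgeR adjusted p = 0.000615). GPAT3, a further glycerol phosphate acyltransferase, averaged 5.34 ± 1.99, 17.7 ± 3.08 and 14.5 ± 7.94 CPM and rose by 1.73 ± 0.38 at GD124 against GD100 without overlap (adjusted p = 0.00332). Over the span ACSL4 fell by 1.46 and GPAT3 rose by 1.44 on the log2 scale with overlapping libraries. With GD100 replicate 1 alone the log2 changes were no smaller, -1.82 for ACSL4 and 1.55 for GPAT3, though neither was called in that fit. The list then had 1 rise and 2 falls over the span.

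Of 19 further tested genes of droplets, lipolysis and export 7 (36.8%) rose and 4 (21.1%) fell over the span, beside 27.1% and 27.9% of all tested genes. HSD17B11, a droplet-associated dehydrogenase, averaged 73.2 ± 23.2, 198 ± 54.3 and 326 ± 104 CPM at GD100, GD124 and GD144 (log2 2.16 ± 0.28 over the span, edgeR adjusted p = 7.12e-06). TM6SF2, needed for lipidation of secreted lipoproteins, rose by 1.70 ± 0.30. PNPLA6, a lysophospholipase, fell by 2.04 on the log2 scale, and PRAP1, a lipid-binding secreted protein, fell by 2.83. The values of PNPLA6 at GD124 were 11.1 to 19.8 CPM, below each GD100 library, with the highest in replicate 5. With GD100 replicate 1 alone 4 of this list rose and 2 fell over the span.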

How the data were processed

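The deposited table gives, per the file's values, an estimated count of reads per gene and library, not normalised. Poly(A)-selected, paired-end libraries were sequenced, per the labels' protocols, and the submitters' processing notes name DRAGEN. For the DRAGEN version, genome build, annotation and strand setting, nothing is given in the sources used here. Estimated counts (6.55% fractional) were rounded, and CPM were computed with TMM factors in edgeR 4.0.16 under R 4.3.3. The filterByExpr function left 16977 genes, with a common dispersion of 0.1156. No pair of replicates agreed within sampling noise (chi-square per degree of freedom at least 43.72). A library's counting precision follows from its 24215612 to 38247295 counts, and the spread between replicates exceeded it.

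The 36 genes, the lists, the 11 ratios (counts with 0.5 added) and the tests were chosen with earlier results of these data known. Of the 88 further genes, up to 4 per list were named, those with the largest change called at GD144 against GD100 and at least 10 CPM in the higher stage. The procedure was also run on simulated data in which only a small share of genes changed. Its error rates under changes as broad as those seen here were not tested.

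All 36 of 36 gene names matched a symbol in RefSeq's gene table (assembly ARS-UI_Ramb_v3.0). The 14 genes that overlap another gene there, and whose values are therefore uncertain, are ACACA, ACACB, ELOVL2, ELOVL6, FADS1, MLXIPL, AGPAT1, AGPAT3, LPIN2, LPIN3, DGAT1, CIDEB, ABHD5 and LIPC, and of the further genes named MDH1, PC, ACSL1 and GPAT3 do. Alternatives were other scalings and filters, DESeq2 1.42.0, robust estimation off, pairwise fits, a replicate block and leaving out libraries.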

Additional observations from a re-analysis of the deposited data

Results flagged for a closer look

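A library stood away from the rest of its stage in 12 of 108 combinations of gene and stage, by Dixon's test at the 95% level, which chance alone passes in about 1 of 20. Values are CPM, with the range of the other libraries of the stage. At GD100, replicate 1 was high for ACACA (56.7, others 33.2 to 34.3) and FASN (142, others 109.8 to 112), replicate 2 for SCD (71.4, others 6.25 to 17.2) and replicate 4 for MTTP (194, others 77.4 to 94.9). At GD124, replicate 5 was high for ACACB (8.58, others 4.00 to 4.80), replicate 1 for FASN (95.1, others 51.1 to 60.5), replicate 4 for CIDEB (178, others 120.3 to 132) and PNPLA2 (63.3, others 31.2 to 39.0), and replicate 3 for ABHD5 (10.2, others 6.56 to 7.60), while replicate 3 was low for PLIN5 (30.8, others 38.5 to 41.3). At GD144, replicate 4 was high for MTTP (327, others 264 to 280) and replicate 2 for PLIN5 (68.2, others 56.5 to 59.8).

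The later change differed from the earlier one by log2 1.63 for ACACB, 1.25 for AGPAT2, 0.95 for PLIN5 and -1.42 for CIDEB, in the edgeR test of the difference itself. Without GD124 replicate 5 the difference for ACACB was 2.10 (adjusted p = 0.0161).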

How the results depend on the processing

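With GD100 replicate 1 as the sole library of its stage, the genes called higher numbered 2 rather than 6 at GD124 against GD100 and 7 rather than 14 at GD144 against GD100, calls over all genes at GD124 against GD100 numbered 3167 rather than 5774, and further pathway genes numbered 7 rather than 14 higher at GD124, and 14 rather than 28 higher and 12 rather than 21 lower at GD144, each against GD100. PLIN5 at GD144 against GD100 then changed sign (log2 -0.055, edgeR adjusted p = 0.824). The setting leaves 1 library at that stage, assumed to vary like the others. With scaling by total counts, 9 rather than 14 further genes were higher and 11 rather than 7 lower at GD124 against GD100, and 22 rather than 14 were higher at GD144 against GD124. That scaling moved the median change of all genes to log2 -0.164 at GD124 against GD100, where 30.8% rather than 48.9% of calls were higher, and to 0.071 at GD144 against GD124, where 54.1% rather than 43.9% were. The count with a different change in the 2 intervals was 7 with DESeq2 rather than 4.

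Leaving out a library gave 5 to 8 genes higher and 7 to 11 lower at GD124 against GD100, 10 to 16 higher at GD144 against GD100, 0 to 8 with a different change in the 2 intervals, 4169 to 6234 calls over all genes at GD124 against GD100, and 7 to 15 further genes higher at GD124 against GD100. Of the 36 genes' log2 changes, 3353 recomputed values stayed on their side of the threshold, 153 were no longer called, 57 became called and 1 called change reversed in sign. The 3353 can include changes of sign where neither fit called the gene. A replicate block gave 0 rather than 4 genes with a different change in the 2 intervals (8 at an unadjusted p under 0.05) and 8 rather than 14 further genes higher at GD144 against GD124. Deviations of libraries with the same number correlated at -0.155 to 0.144 over 13 pairs, 1 of them over 0.1, so the numbers were not taken as pairing. The cause of these differences was not tested.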
